A study of Cyprinus carpio 'koi' with 9 samples.

Results

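A set of 18 assembled transcript features of Koi carp skin was examined, all of them present in black skin (BS) and red skin (RS) and lower in white skin (WS). They were taken from 446614 features by their measured values. TPM (RSEM's length-corrected share of a library) was first divided by the library's median TPM over 29750 features with 10 or more expected counts in all 9 libraries, which gives the scaled TPM used below. A feature was kept where it had 10 or more expected counts in each of the 6 BS and RS libraries, a minimum that 30978 features met. Its scaled TPM plus 0.05 also had to be at least 2 times that of WS in BS and in RS, within every library number from 1 to 3. Features 2-fold apart between BS and RS in all 3 numbers were to be dropped, which applied to 0 features, and 1 further feature that met the rule was left out. Because these values chose the members, they are given below as a description, without a test.

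The colors of fish skin come from chromatophores, pigment cells that derive from the neural crest. Melanophores hold dark melanin in melanosomes, xanthophores and erythrophores hold yellow to red pteridines and carotenoids, and iridophores reflect light from purine crystals. Microphthalmia-associated transcription factor (Mitf) is known as a master regulator of the melanin-bearing lineage, and opsins, the light receptors of the eye, are also known from the skin and pigment cells of fishes.

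The study sequenced poly(A) RNA of BS, RS and WS, with 3 libraries of each. The labels describe skin of strain FFRC from 3 untreated fish that each carried black, red and white spots, held at one temperature and tranquilized with MS-222 before sampling, and they give no age. The libraries carry numbers 1 to 3, and no label says in words that libraries of the same number share a fish. A skin patch is bulk tissue, so fewer cells of a type and less RNA per cell cannot be told apart.

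The BS libraries held 14812893, 25002494 and 18584474 expected counts, the RS libraries 16442396, 20643139 and 15242020, and the WS libraries 13773868, 23058887 and 15821740. The 100 largest features took 22.7% (WS, number 3) to 62.6% (RS, number 1) of a library. Fragments were longer in number 2, at 347 to 360 bp, than in numbers 1 and 3, at 284 to 295 bp. Features listed by the study under striated muscle terms summed to a scaled TPM of 17.9 to 6819 in BS, 10.3 to 98.6 in RS and 42.3 to 125 in WS, with the highest value in BS1. None of the 18 members is in that list, and its part in the results below was not tested. The 3 features under epidermis terms summed to 0.491 to 0.662 in BS, 0.481 to 1.22 in RS and 0.340 to 0.909 in WS.

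Of the 18 members, 3 were annotated in the study's supplementary tables, some of which were read only in part, and 15 were not. The 3 were a Mitf feature, a feature with opsin terms and a feature with DNA-binding terms. The tables that gave terms cover only mRNAs the study called different between colors and predicted targets of its long non-coding RNAs. A member without annotation may therefore still be a known gene. The smallest of a member's 6 ratios over WS, on scaled TPM plus 0.05, ranged from 2.02 to 10.7, and it was at least 3 in 8 members. White skin was at 0 counts in all 3 libraries for 3 members and in at least 1 library for 8 members. The median over members of the log2 difference on this scale was 2.46 for BS against WS and 2.80 for RS against WS, beside 0.02 and 0.03 over the 30978 features with enough counts. With the members at 0 counts in WS set at a floor of 3 counts per white library, on the same scale, the medians were 2.44 and 2.47. The difference on this scale understates the change of low features.

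**Figure D1:**
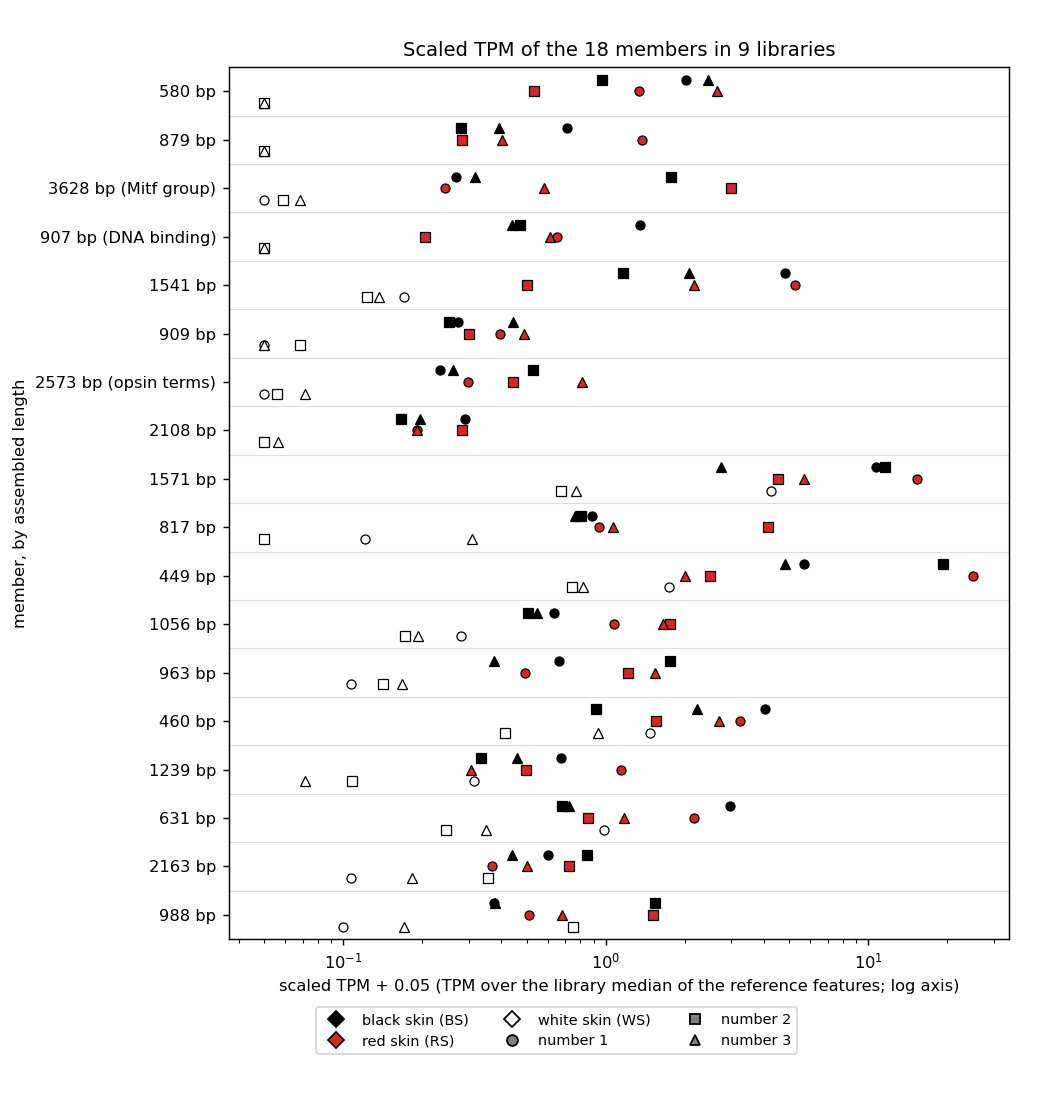
Scaled TPM plus 0.05 on a log axis (TPM over the library's reference median) for the 18 members, ordered by their smallest ratio over white skin and named by assembled length; each point is 1 library of BS (black), RS (red) or WS (white), and its shape gives the number. In 13 members every BS and RS point lies to the right of every WS point.

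Compared without regard to the number, the lowest BS library was above the highest WS library in 14 of 18 members (1.71% of the 30978 features) and the lowest RS library in 15 of 18 (1.97%). Both held in 13 members, against 0.5% of the features, and 4.26% of the features were above WS in all 6 comparisons within numbers, as all 18 members are by the rule. The rule itself nearly fixes these counts. The exceptions included the most abundant member, TRINITY_DN151714_c0_g1, described below.

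The Mitf feature was TRINITY_GG_173596_c90_g1, assembled at 3628 bp in 2 transcripts. The study's tables list it under melanocyte differentiation and the melanogenesis pathway, and its KEGG orthology group, K09455, is that of Mitf. Its scaled TPM was 0.218, 1.72 and 0.268 in BS, 0.195, 2.94 and 0.532 in RS, and 0, 0.00915 and 0.0185 in WS, each in the order of numbers 1 to 3. All 6 BS and RS libraries lay above all 3 WS libraries, and number 2 was highest in both colors. The expected counts behind these values were 41.4, 582.6 and 108.4 in BS, 27.1, 1426.3 and 154.0 in RS, and 0, 5.0 and 6.1 in WS. The log2 difference was 3.18 ± 1.5 for BS against WS and 3.68 ± 1.76 for RS against WS (SD, n = 3 numbers). The smallest ratio was 4.64 (BS3 over WS3) and the largest 50.5 (RS2 over WS2). On scaled expected counts plus 0.05 its smallest ratio was 8.25, the largest of all members, but this rank depends on the added 0.05. Without it, and where WS was above 0, its smallest count ratio was 15.1 (BS3 over WS3). That of the 909-bp feature was 24.8 (RS2 over WS2) and that of the 2108-bp feature 25.1 (RS3 over WS3), each against 1 count in WS. A further 3 members had no count in WS.

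The tables hold 3 further features of the Mitf group, none of which met the rule. TRINITY_DN157234_c1_g1 (1624 bp) had a scaled TPM of 0.196, 1.49 and 0.123 in BS, 0.655, 3.31 and 1.61 in RS, and 0 in every WS library. It exceeded WS by at least 3.46-fold in every number on scaled TPM plus 0.05, but had 8.0 counts in BS1, short of the minimum of 10. On the same scale this feature was also over 2-fold higher in RS than in BS in every number, which the rule drops. TRINITY_GG_152857_c1_g1 (666 bp) was at 0 counts in BS and RS of number 1 and in all of WS, and held 5.5 and 10.2 counts in BS2 and BS3 and 31.6 and 25.6 in RS2 and RS3. TRINITY_GG_59867_c110_g1 (633 bp) had 6.6, 0 and 5.7 counts in BS, 12.7, 30.9 and 12.9 in RS, and 0, 0.5 and 0 in WS. Summed over the 4 Mitf features, BS held 998.3 counts, RS 2352.7 and WS 11.6. The summed scaled TPM was 0.749, 3.42 and 0.817 in BS, 1.72, 7.82 and 3.57 in RS, and 0, 0.0183 and 0.0185 in WS. RS was above BS in all 3 numbers in this sum, while the member feature alone was lower in RS than in BS in number 1. The study drew these features from its own comparisons of these libraries, so the low WS values are not independent evidence. Common carp carries duplicated genes, and reads shared by near-identical copies could have been split between the 4 features.

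**Figure D2:**
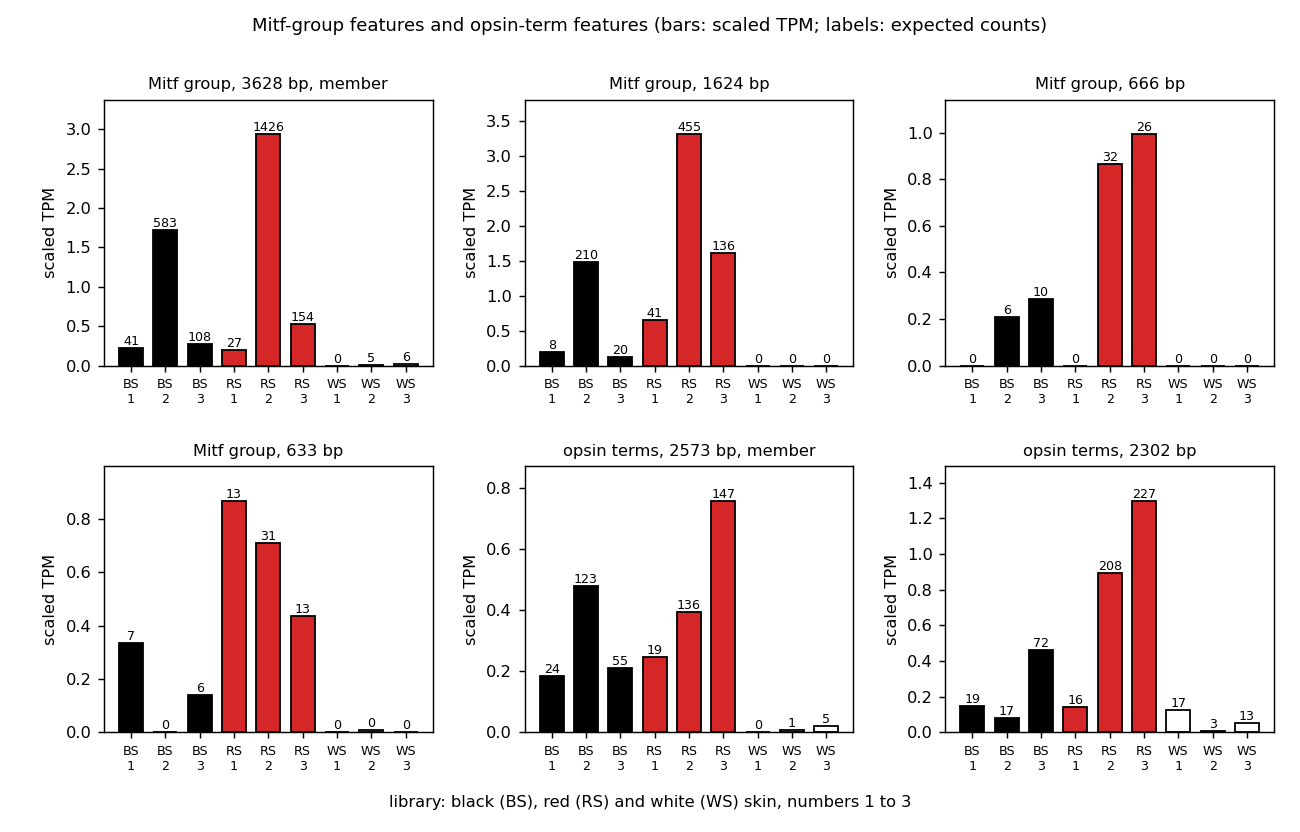
Scaled TPM (bars, linear axes from 0) of the 4 Mitf-group features and the 2 features with opsin terms in the 9 libraries, with the rounded expected counts above each bar. WS stays at 6.1 counts or fewer in each Mitf feature, while the 2302-bp opsin feature reaches 17 counts in WS1.

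The opsin feature was TRINITY_GG_42678_c5_g1, at 2573 bp in 4 transcripts, listed under G-protein coupled photoreceptor activity, retinal binding and phototransduction. Its scaled TPM was 0.184, 0.480 and 0.211 in BS, 0.248, 0.394 and 0.758 in RS, and 0, 0.00610 and 0.0216 in WS. The lowest BS library was above the highest WS library, and RS did not overlap WS either. Counts were 24.1, 123.2 and 55.2 in BS, 19.4, 135.9 and 146.6 in RS, and 0, 1.4 and 5.0 in WS. The log2 difference was 2.45 ± 0.71 for BS against WS and 3.02 ± 0.46 for RS against WS (SD, n = 3 numbers). RS exceeded BS in numbers 1 and 3, by 1.27 and 3.09 times, and was 0.84 times BS in number 2.

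Another feature under the same opsin terms, TRINITY_DN168731_c0_g1 (2302 bp), was not a member. It had a scaled TPM of 0.145, 0.0809 and 0.464 in BS, 0.142, 0.894 and 1.30 in RS, and 0.124, 0.00610 and 0.0525 in WS. In number 1 the 3 colors lay close together, with RS at 1.10 times WS on scaled TPM plus 0.05, so it did not meet the rule there. The member with opsin terms, by contrast, had 24.1 counts in BS and 19.4 in RS of number 1, with none in WS.

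The annotated feature TRINITY_GG_87596_c0_g1 (907 bp, 1 transcript) carries only the terms DNA binding and nuclear membrane. It had a scaled TPM of 1.30, 0.422 and 0.388 in BS and 0.602, 0.154 and 0.561 in RS, and no count in WS. Its counts were 45.8, 26.6 and 28.8 in BS and 15.8, 13.4 and 30.1 in RS. Against a floor of 3 counts in each WS library it was at least 8.15-fold higher in BS and at least 4.67-fold higher in RS. BS was above RS in numbers 1 and 2, where RS was 0.48 and 0.43 times BS.

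The member with the largest smallest ratio, TRINITY_DN162974_c5_g1, was a 580-bp feature of 3 transcripts with no annotation. Its scaled TPM was 1.98, 0.913 and 2.41 in BS and 1.29, 0.484 and 2.59 in RS, with 33, 24.8 and 83 counts in BS, 16, 17 and 65 counts in RS, and 0 in all of WS. It was at least 11.6-fold higher in BS and at least 6.13-fold higher in RS than the floor of 3 counts in WS. Number 2 was lowest in both BS and RS, the reverse of the Mitf feature.

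An unannotated 879-bp feature was the other member with no count in WS. It had 22, 14 and 24 counts in BS and 33, 19 and 18 in RS, which put it at least 6.66-fold and at least 6.74-fold above the floor. An unannotated 1541-bp feature was measured in every library, with a scaled TPM of 4.78, 1.11 and 2.03 in BS, 5.22, 0.449 and 2.12 in RS, and 0.121, 0.0732 and 0.0864 in WS. This feature combined a high level with a wide gap, since its lowest BS or RS library, RS2, was 3.72 times its highest WS library, WS1. Its log2 difference was 4.0 ± 0.80 for BS and 3.65 ± 1.49 for RS against WS (SD, n = 3 numbers).

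The most abundant member was TRINITY_DN151714_c0_g1 (1571 bp, 5 transcripts, no annotation), with a median scaled TPM of 8.16 over BS and RS. Its values were 10.7, 11.5 and 2.71 in BS, 15.3, 4.48 and 5.64 in RS, and 4.21, 0.622 and 0.719 in WS. BS3 was below WS1, so the BS and WS libraries overlapped across numbers although BS was at least 2.52 times WS within each number. Its WS1 library held 456.2 counts, against 812.0 in BS and 906.4 in RS of the same number. An unannotated 460-bp feature was also lowest in WS within each number, with 3.98, 0.867 and 2.18 in BS, 3.19, 1.51 and 2.64 in RS, and 1.42, 0.363 and 0.883 in WS. Its BS2 value was under its WS1 and WS3 values.

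Members still separated by at least 3-fold included a 909-bp feature at 11 to 29 counts in BS and 12 to 23.4 in RS, with 1 count in WS2 and none in WS1 and WS3. They also included a 2108-bp feature at 23.2 to 34.5 counts in BS and 11 to 63.8 in RS, with 1 count in WS3 alone. Both had a low level, with medians of 0.298 and 0.143 over BS and RS on the scaled TPM. The 8 members with a smallest ratio of at least 3 were the Mitf, opsin and DNA-binding features and the unannotated features of 580, 879, 1541, 909 and 2108 bp. The unannotated features of 817, 963 and 1239 bp had smallest ratios of 2.47, 2.24 and 2.14. The 817-bp feature held its most counts in RS2, 295.9, with 0 in WS2. The 963-bp feature was present at a low level in every WS library, with 3 to 9.1 counts, against 23.5 to 118.8 in BS and 12.7 to 110.4 in RS.

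TPM depends on the effective length that RSEM assigned to a feature in each library, which follows the transcripts it took as expressed. The ratios were therefore formed again on expected counts divided by the library's median count over the same 29750 features, with 0.05 added. On this scale 12 members were at least 2 times WS in all 6 comparisons and 6 were not. The 6 were unannotated features of 449, 460, 631, 988, 1056 and 2163 bp. All 3 annotated members were among the 12.

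**Figure D3:**
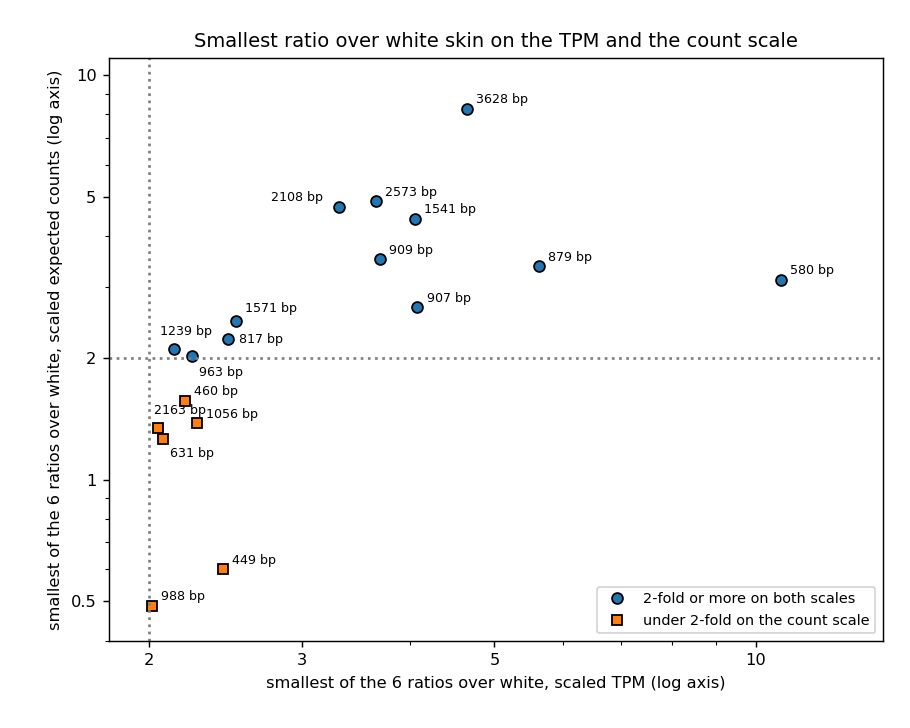
Smallest of the 6 ratios over white skin for each of the 18 members, on scaled TPM (x axis) and on scaled expected counts (y axis), both log axes, with dotted lines at 2. The 12 circles pass 2 on both scales, and the 6 squares fall to between 0.487 and 1.57 on the count scale.

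The 449-bp feature had the second highest median scaled TPM of the set, 5.20, with 5.63, 19.2 and 4.77 in BS, 25.04, 2.44 and 1.94 in RS, and 1.69, 0.692 and 0.769 in WS. Its counts ran the other way, with 74.3, 38.3 and 79.9 in BS, 57.6, 45.7 and 35.1 in RS, and 109.9, 86.3 and 51.4 in WS. The effective length was 235, 17.3 and 139 bases in BS, 54.3, 120 and 208 in RS, and 828, 770 and 654 in WS. The log2 difference was 2.99 for BS and 2.29 for RS against WS on scaled TPM, and it was -0.10 and -0.34 on expected counts, so its direction turned with the scale.

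In the 1056-bp feature the counts also overlapped, with 37.3, 36.2 and 46.0 in BS, 25.1, 96.4 and 53.5 in RS, and 31.4, 35.9 and 22.5 in WS. Its effective length was 361 to 1131 bases over BS and RS and 1565 to 1803 bases in WS. These were the 2 members whose effective length was longer in every WS library than in every BS and RS library. The 988-bp feature had an effective length of 126 bases in BS2 and 643 bases in WS2, and held 21.4 counts in BS2 against 72.9 in WS2. By contrast, the 460-bp feature had nearly the same effective length in each number, 109 bases in BS2, 112 in RS2 and 119 in WS2. Its smallest ratio on the count scale was 1.57, which depends on the constant added to the scaled counts. Without that constant, every count ratio of the 460-bp feature was above 2, from 2.26 (BS2 over WS2) to 3.98 (RS2 over WS2).

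**Figure D4:**
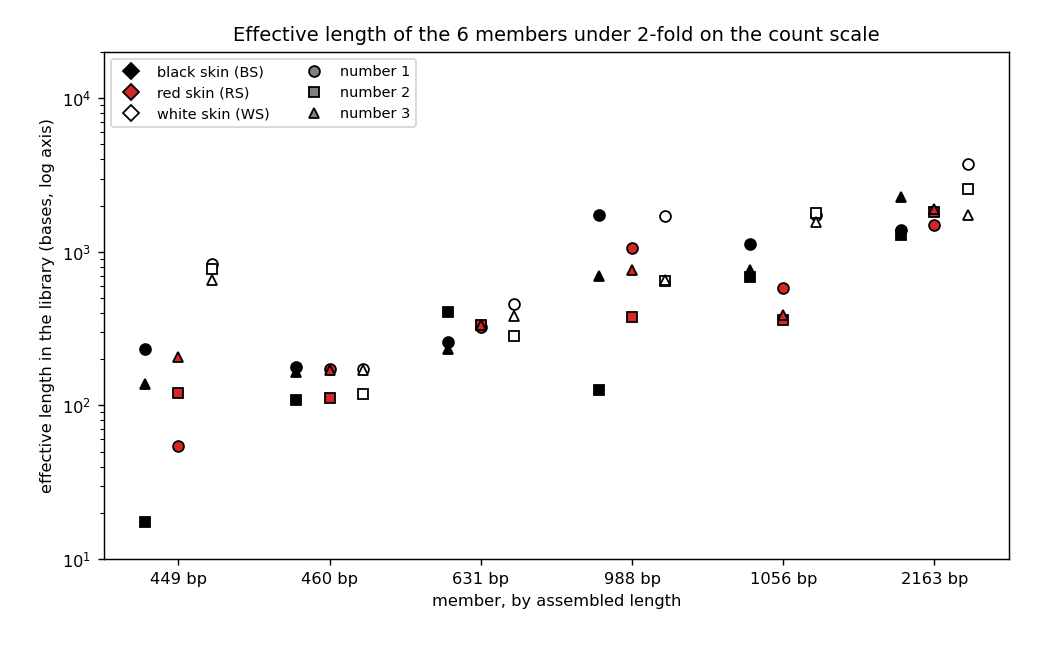
Effective length in bases (log axis) that RSEM used in each BS (black), RS (red) and WS (white) library for the 6 members under 2-fold on the count scale. For the 449-bp and 1056-bp features every WS point lies above every BS and RS point, while those of the 460-bp feature lie close together within each number.

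Between the pigmented colors the members did not all share a direction, and more of them leaned to RS than to BS. RS was above BS in all 3 numbers in 4 of 18 members (13.6% of the 30978 features), in 2 numbers in 8 members, in 1 number in 6 and in none in 0 (11.7%). The 4 were the unannotated features of 817, 879, 909 and 1056 bp. The median over members of the log2 difference of RS against BS was 0.24, with values from -0.69 in the 449-bp feature to 1.38 in the 1056-bp feature. The rule excluded members 2-fold apart in all 3 numbers, and the 1056-bp feature came closest, at 1.69, 3.48 and 3.02 times BS.

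Members also differed in which number was high. In 2 members, the Mitf feature and the 988-bp feature, number 2 was over 2-fold above the mean of numbers 1 and 3 on the log2 scale in both BS and RS. In 2 others, of 580 and 1541 bp, it was over 2-fold below that mean in both, and 14 members did neither. The Mitf feature was 2.60 log2 units higher in BS2 and 2.98 in RS2 than that mean, and the 1541-bp feature was -1.45 and -2.76. In the 988-bp feature BS2 was highest on scaled TPM only, since its BS counts were 31.6, 21.4 and 27.5. Its effective length was 1745, 126 and 695 bases in BS. Its RS counts, 20.4, 85.6 and 41.9, were highest in number 2. Number 2 was also the number with the longer fragments, and the part of this in the pattern was not tested. The number behind a member's smallest ratio varied, since it lay in BS3 or RS2 for 5 members each, in BS1 or BS2 for 3 each, and in RS of number 1 or 3 for 1 each.

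Other genes linked to melanin and its cells were taken from the study's tables, as a list of 39 features. They stood under melanosome, melanin, melanocyte, pigment granule dispersal or eye pigmentation terms, or in the melanogenesis and tyrosine metabolism pathways. Of these, 33 had under 10 counts in at least 1 BS or RS library, and only the Mitf feature was a member. In 14 of the 39, BS was at least 2 times WS in every number, and in 3 it was at most 1/2 of WS. The same counts for RS were 10 and 2. Of the 6 list features with 10 or more counts in all BS and RS libraries, BS was at least 2 times WS in every number in 1, the Mitf feature, and RS in 2, the Mitf feature and TRINITY_GG_74172_c3_g1. Over all 30978 features with enough counts the shares were 0.229% and 0.239%, but the list was drawn by the study from differences in these same libraries. Summed over the list, scaled TPM was 11.7 to 86.0 in BS, 12.2 to 32.2 in RS and 10.0 to 28.1 in WS, so the sums overlapped. These sums mixed opposite directions. TRINITY_DN166467_c1_g1, under hormone signaling terms and the melanogenesis pathway, made up 21.3, 3.94 and 9.94 of the WS sums in numbers 1 to 3. It was at 0.0168, 0 and 0.0946 in BS and 2.73, 0 and 1.97 in RS. TRINITY_GG_57821_c1_g1, under the same terms, was also highest in WS, at 3.32, 0.561 and 1.76.

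Of the 39 features, 5 had all 6 ratios at 2 or more, the Mitf member and 4 that missed the count minimum. Of the 4, the second Mitf feature given above was also over 2-fold higher in RS than in BS in every number, which the rule drops. Another was a tyrosinase feature, TRINITY_GG_118902_c0_g1 (1703 bp), of the enzyme that starts melanin synthesis. It had 14, 133 and 25 counts in BS, 3, 73 and 27 in RS, and 0, 3 and 2 in WS, with RS of number 1 short of 10. The others were a melanosome feature, TRINITY_DN162275_c0_g3 (520 bp), with 26.4, 85 and 20.2 counts in BS, 4, 24.3 and 43 in RS and 2, 0 and 0 in WS, and a pigment granule dispersal feature, TRINITY_DN156458_c0_g2 (603 bp). That feature held 1 to 9 counts in BS, 4 to 19.5 in RS and none in WS.

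Some other melanin features, not members, held far fewer counts in RS than in BS. A second tyrosinase feature, TRINITY_GG_98757_c0_g1 (1917 bp), had 4, 109.7 and 1 counts in BS, 0, 4 and 0 in RS, and none in WS. A feature under melanin synthesis terms, TRINITY_GG_142711_c33_g1 (1936 bp), had 174.3, 1768.6 and 262.7 counts in BS, 7.9, 159.5 and 2.9 in RS, and 23, 0 and 0 in WS.

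The endothelin receptor B feature of the list, TRINITY_DN157154_c7_g1, of a receptor used in pigment cell development, had enough counts and yet was no member. Its scaled TPM was 0.358, 0.451 and 0.609 in BS, 0.805, 1.29 and 1.10 in RS, and 0.401, 0.171 and 0.114 in WS. BS1 was below WS1, while RS was above WS in all 3 numbers. The 8 features under carotenoid and retinoid terms, of which the opsin member is 1, summed to 0.874 to 3.93 in BS, 2.61 to 13.1 in RS and 0.564 to 0.912 in WS. RS was above both other colors in this sum except that BS of number 2 lay above RS of number 1. The 3 melanocortin receptor features summed to 0.0726, 1.79 and 0.271 in BS, 0.0354, 2.88 and 1.38 in RS, and 0, 0.0274 and 0.0247 in WS, and none reached 10 counts in all 6 BS and RS libraries.

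The lists for other cell types and pigments held no member. The list meant for pteridines held 2 features of the folate biosynthesis pathway, 1 under dihydrofolate reductase and 1 under alkaline phosphatase terms. They summed to a scaled TPM of 0.128 to 1.40 in BS, 0.655 to 1.72 in RS and 0.0154 to 0.0390 in WS. The 15 under lipid terms summed to 3.85 to 5.03 in BS, 2.82 to 15.6 in RS and 0.784 to 2.10 in WS, so both of these lists lay higher in every BS and RS library than in any WS library. The 24 immune features summed to 11.9 to 27.2 in BS, 22.6 to 27.8 in RS and 10.5 to 17.1 in WS, with RS above WS. The 35 neural features (0.0223 to 3.20 in BS, 0 to 9.61 in RS, 1.05 to 2.01 in WS), the 40 matrix features (5.13 to 35.8 in BS, 10.1 to 18.6 in RS, 6.64 to 29.6 in WS) and the 33 tight junction features (12.0 to 2207 in BS, 8.54 to 315 in RS, 17.8 to 91.3 in WS) overlapped between colors. The 1 feature under oxygen carrier activity was at 0 except in WS2, at 0.412. The part of these lists in the members' values was not tested.

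The members had a median assembled length of 976 bp, beside 1472 bp over the 30978 features with enough counts, and a median of 2.5 assembled transcripts, beside 3. Their median level over BS and RS was 0.675 on the scaled TPM, above that of 35.1% of those features. Of the 18, 7 came from the genome-guided assembly and 11 from the de novo assembly, and the genome-guided share was 38.9% in the members and 56.2% in all features with enough counts. The 7 came from 7 different assembly regions, and 0 members had counts identical to those of another feature. The 3 annotated members and the 963-bp feature, 4 in all, are in the study's mRNA list, which was drawn from these same libraries. None was found in the study's lncRNA lists, which were read only in part.

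The threshold lay in a run of near values. The members just inside it had smallest ratios of 2.02, 2.05 and 2.08 (988, 2163 and 631 bp), and the features just outside had 1.98, 1.93 and 1.91. Of all features with enough counts, 42 had a smallest ratio from 1.5 up to 2. Mirrored rules gave 24 features for BS and WS over RS, 10 for RS and WS over BS, and 39 for WS over BS and RS. The last of these rules is unlike the others, since it asked for the count minimum in the WS libraries only and had no drop step. The 18 features low in WS lay between the 10 and the 24 that the rules of the same form gave for the other colors.

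Fits across all features were called at the study's thresholds, an FDR of at most 0.05 and a fold of at least 2. At these thresholds the study, with edgeR 3.22.3, reported mRNAs and lncRNAs as different in every comparison. It named neither the edgeR test nor a count filter, and the source of the difference from the fits made here was not tested. In these fits, by edgeR's quasi-likelihood test, 0 of 68812 features were called for BS against WS. The same test called 0 of 66740 for RS against WS and 0 of 65727 for RS against BS (0% each). At an unadjusted p under 0.05 by this test, the features numbered 262 of 68812, 271 of 66740 and 216 of 65727. Of these, 152 were higher in BS and 119 in RS than in WS, and 63 were higher in RS than in BS. The members numbered 8 of 17, 10 of 18 and 0 of 18. Each share of all features was far under 0.05, so 0 calls by this test does not show that the colors were alike. The 879-bp feature was below the count filter in BS against WS. DESeq2's Wald test called 43, 57 and 33 features. The members among them were 6 for BS (23 features higher, 0.0334%), 8 for RS (35 features higher, 0.0524%) and 0 for RS against BS (8 features higher, 0.0122%), and all 6 of BS were among the 8 of RS. Without the count filter, edgeR called 389, 346 and 355 features. The members among them were 4 for BS (261 features higher, 0.0899%), 5 for RS (165 features higher, 0.0589%) and 0 for RS against BS (88 features higher, 0.0308%). The members were chosen on the same contrasts, so nothing is read from these counts. The edgeR log2 fold change of the Mitf feature was 6.15 ± 1.33 for BS and 6.96 ± 1.46 for RS against WS (SE), and that of the opsin feature 5.10 ± 1.23 and 5.72 ± 1.21. Over the members tested, this fold change was above 0 in 16 of 17 for BS and 17 of 18 for RS, and the exception in both was the 449-bp feature.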

How the data were processed

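The authors mapped reads to the common carp genome (version 3.0), assembled them with Trinity, clustered transcripts with CD-HIT and quantified each assembled gene with RSEM, 1 table per library. The submitters' processing notes name TopHat2 2.0.10, RSEM 1.2.21 and edgeR 3.22.3. The expected counts, as the authors deposited them, estimate how many read pairs came from a feature and need not be whole. The TPM column deposited beside them gives length-corrected shares of each library from the same software, and the FPKM column was left aside.

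The members, lists and alternatives were chosen with earlier results of these data known. TPM was scaled and the rule applied as given in the report. Counts were rounded, filtered by filterByExpr (minimum count 10), normalized by TMM and tested by edgeR 4.0.16 (quasi-likelihood, Benjamini-Hochberg adjustment) without a block, with DESeq2 1.42.0 as an alternative, in R 4.3.3; the fitting code was first tested on simulated data. Python 3.11.15 and pandas 2.3.3 were used for the rest. Members with an annotation were named, as were the 5 with the largest smallest ratio and the 5 with the highest median over BS and RS; 2 unannotated identifiers are printed and other members are called by length. Terms and KEGG groups, which give the Mitf, tyrosinase and endothelin receptor names, came from the study's supplementary tables. Other features were chosen after their values were seen.

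Libraries of the same number deviated together from their group means (r of 0.58 to 0.86 in 9 pairs, against -0.67 to 0.15 in 18 pairs of different numbers), so the numbers were taken to pair the libraries. Deviations from a group mean cancel out within the group, so high values for equal numbers push those for different numbers down. A shared fish cannot be told apart here from other factors that follow the number, such as fragment length. The floors cover counting error only. The labels describe 3 fish, but none says that the libraries of a group came from separate ones, so p-values measure the spread between these libraries. The assembled sequences were not used here.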

Additional observations from a re-analysis of the deposited data

How the results depend on the processing

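The number of members followed the settings. It was 5 with an offset of 0.2 and 23 with 0.01, 60 at a fold of 1.5 and 8 at 3, 29 and 9 at count minimums of 5 and 20, 89 with any count above 0, and 13 with TPM scaled by TMM factors. It was 10 when the lowest of the 6 BS and RS libraries had to be 2 times the highest WS library, and 149 to 590 when 1 replicate number was left out, with 590 without number 2, 218 without number 1 and 149 without number 3. Expected counts in place of TPM, an alternative added after the data were seen, gave 15 features, 12 of them members.

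With the replicate block, edgeR again called 0 features and 0 members in each comparison, so this pairing changed no call. The smallest FDRs were 0.308, 0.639 and 0.122 for BS against WS, RS against WS and RS against BS. The pairing did change the unadjusted values. At p under 0.05 by the quasi-likelihood test there were 1364, 1089 and 1247 features with the block, against 262, 271 and 216 without it. RLE size factors and leaving out each number gave 0 calls as well. DESeq2 called 43, 57 and 33 features, with 6, 8 and 0 members among them. Without the count filter edgeR called 389, 346 and 355 features, with 4, 5 and 0 members.

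The median log2 difference of the members was 3.37 (BS) and 3.60 (RS) against WS with an offset of 0.01, and 1.37 and 1.72 with 0.2. It was 2.77 and 3.83 as edgeR's log2 fold change without a block, and 3.02 and 3.84 with the replicate block, which was added later. Leaving out 1 number gave 2.07 to 2.73 for BS, 2.54 to 2.79 for RS and 0.07 to 0.31 for RS against BS. Of 142 recomputed values of the 9 named members, 136 kept their direction. The rule fixed the direction of those with another offset or with 1 number left out, so these could not reverse. Of the 142, 90 stayed within the SD between numbers and 46 moved beyond it in the same direction. The other 6 were those of the 449-bp feature, at -0.084 (edgeR without a block), -0.12 (replicate block) and -0.10 (expected counts) for BS against WS, and -0.25, -0.39 and -0.34 for RS against WS. Its effective length in WS was 654 to 828 bases, against 17.3 to 235 in BS and RS. Members at 0 to 6 counts in WS limit the depth of these comparisons.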
